A study of Mus musculus with 7 samples.

Results

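The enzymes of mitochondrial fatty acid beta-oxidation were examined in fasted livers of wild type (WT) and SHIVA mice. The members were 10 genes, Acadvl, Acadl, Acadm, Acads, Etfdh, Hadha, Hadhb, Hadh, Acaa2 and Decr1, and every array probe carrying one of these names was kept, which gave 11 of the 55681 probes and 10 of the 36413 gene names on the arrays. Decr1 had 2 probes and the other 9 genes had 1 each. Liver RNA of 3 WT and 4 SHIVA mice was hybridised to single-colour Agilent arrays, 1 mouse per array. All 7 mice were C57BL/6 females, 8 to 12 weeks old, and all had been fasted for 24 h, so no fed liver was available for comparison. SHIVA mice carry a chemically induced heterozygous mutation in the DNA-binding HMG domain of the transcription factor Sox17. They come from 1 mutant line kept by backcross to C57BL/6, and the mutation is present in every cell of the animal, not in hepatocytes alone. The comparison addressed whether the oxidative program that fasting induces through the nuclear receptor PPARα differed between the genotypes.

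In fasting, fatty acids released from fat stores reach the liver, cross the inner mitochondrial membrane as carnitine esters and are shortened inside the mitochondrion by a repeated cycle of dehydrogenation, hydration, a further dehydrogenation and thiolytic cleavage. The acyl-CoA dehydrogenases that open each turn differ in the chain length they prefer, and their electrons pass through the electron transfer flavoprotein and its dehydrogenase Etfdh to ubiquinone. Many genes of the pathway are known targets of PPARα, which binds direct repeats of the half-site AGGTCA as a partner of RXR.

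All 11 member probes were well above background on all 7 arrays. None differed between the genotypes at an adjusted p under 0.05 (limma, Benjamini-Hochberg over 26258 tested probes), a threshold that 0.232% of tested probes passed (61 probes, 33 of them lower in SHIVA). At an unadjusted p under 0.05 there was 1 of the 10 members, Acadm, and with it the dimmer Decr1 probe, against 13.0% of all tested probes in either direction and 6.14% in the lower direction. By the brightest probe of each gene, the SHIVA mean lay below the WT mean for 10 of 10 members, where 52.2% of tested probes were lower. The log2 fold changes ran from -0.42 to -0.01 with a median of -0.25, beside a median of -0.01 over all tested probes. For 2 members, Acadm and Hadh, the values of the genotypes did not overlap, with SHIVA lower; 6.15% of tested probes did the same. The median was -0.07 without WT replicate 2 and -0.17 without SHIVA replicate 2, but -0.28 without WT replicate 1 and -0.31 without WT replicate 3. It was -0.16 with the mean spot signal without background correction, with normexp correction of that same mean signal, and in the authors' table. These 3 settings come from the same scans and are not independent readings.

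**Figure D1:**
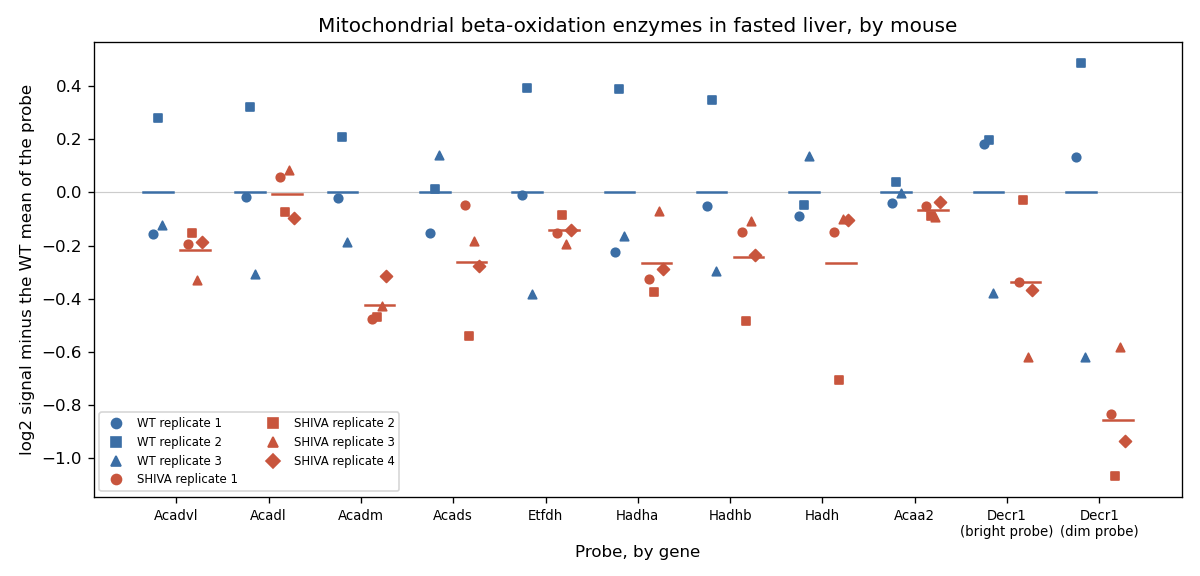
Log2 signal of each member probe in each mouse, minus the mean of the 3 WT mice for that probe; blue symbols are WT, red symbols are SHIVA, the symbol shape is the replicate number and the short lines are group means. The 4 SHIVA mice sit below all 3 WT mice for Acadm and Hadh, and WT replicate 2 is the highest WT mouse for 8 of the 10 genes.

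Sequence upstream of the genes was taken from RefSeq (assembly GRCm38.p6), whose promoter windows of 250 bases before to 50 bases after the start matched 8 of the 10 members by symbol; Decr1 and Acaa2 had none in the table. A pair of stretches is shown because they hold the only matches to the PPARα half-site among the members, and another because 2 members share it. In this pair the half-site AGGTCA, or TGACCT where it lies on the other strand, is in capitals. The Acadm stretch is chr3:153944644-153944893 and the Acadvl stretch chr11:70015429-70015678, both on the minus strand and both ending at the base before the start.

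Acadm: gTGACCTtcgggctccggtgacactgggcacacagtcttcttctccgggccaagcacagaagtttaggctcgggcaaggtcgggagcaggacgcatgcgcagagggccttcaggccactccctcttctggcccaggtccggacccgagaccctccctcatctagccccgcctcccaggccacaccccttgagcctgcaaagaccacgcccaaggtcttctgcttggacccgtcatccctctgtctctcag
Acadvl: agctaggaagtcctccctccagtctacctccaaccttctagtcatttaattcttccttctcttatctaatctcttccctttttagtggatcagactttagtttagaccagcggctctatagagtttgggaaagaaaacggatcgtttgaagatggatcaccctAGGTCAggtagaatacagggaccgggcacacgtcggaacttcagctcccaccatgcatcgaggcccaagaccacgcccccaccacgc

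In Acadm the half-site lay on the strand opposite to the gene, 249 to 244 bases before the start, and in Acadvl on the strand of the gene, 87 to 82 bases before it. Both strands of all windows were searched. AGGTCA was held by 2 of 8 member windows and by 16.3% of all 32851 windows. The full direct repeat (AGGTCA, any base, AGGTCA), a relaxed form of it (AGGNCA, any base, AGGNCA) and the Sox core AACAAT were in 0 of 8 member windows and in 0.0396%, 0.381% and 10.7% of all windows; every match to the full repeat is also a match to the relaxed form and holds the half-site. A match describes letters in a short window and does not make it a bound site.

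Hadha and Hadhb, whose products form the mitochondrial trifunctional protein, start head to head on chromosome 5, Hadha on the minus and Hadhb on the plus strand. The 272 bases between their starts, chr5:30154981-30155252 on the plus strand, are shown because the genes start at either end of this one stretch. It holds none of the 4 motifs, and nothing is in capitals.

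Hadha-Hadhb: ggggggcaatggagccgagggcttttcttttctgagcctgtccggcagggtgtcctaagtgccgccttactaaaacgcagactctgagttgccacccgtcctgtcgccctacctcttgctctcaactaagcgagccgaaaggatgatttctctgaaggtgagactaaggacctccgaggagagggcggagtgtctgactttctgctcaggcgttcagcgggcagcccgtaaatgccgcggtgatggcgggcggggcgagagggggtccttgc

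The values that follow are log2 signals after quantile normalization, in arbitrary units, and the level of one probe cannot be set against that of another. Probe positions are those of the array design on mm9, and each probe was assigned by that design to a RefSeq transcript of its gene; the exon was not determined. The number of arrays, and not depth, limits the precision.

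Acadm, the medium-chain acyl-CoA dehydrogenase, gave the largest difference among the 10 genes by their brightest probe. Its probe lies at chr3:153585670-153585729 (mm9, minus strand). The log2 signals were 13.98, 14.21 and 13.82 in WT replicates 1 to 3 and 13.53, 13.53, 13.58 and 13.69 in SHIVA replicates 1 to 4. Every SHIVA mouse lay below every WT mouse, and the highest SHIVA value was 13.69 against a lowest WT value of 13.82. The log2 fold change was -0.42 (SE 0.15, 95% interval -0.76 to -0.08, limma adjusted p = 0.284), so the geometric mean of the SHIVA signals was 74.7% of that of WT. Across 18 alternative ways of processing or leaving out 1 mouse the value stayed between -0.52 and -0.32, with adjusted p between 0.146 and 0.639. Those that changed only the filter, the probe rule or the test reuse the same fold change and could move only the adjusted p.

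Acadvl, the very long-chain enzyme bound to the inner membrane, was read at chr11:69823722-69823781 (mm9, minus strand). Its log2 signals were 14.46, 14.90 and 14.49 in WT and 14.42, 14.46, 14.29 and 14.43 in SHIVA. The genotypes overlapped, and WT replicate 2 stood above the other 6 mice. This gave a log2 fold change of -0.22 (SE 0.16, limma adjusted p = 0.616), -0.08 without WT replicate 2 and -0.29 without WT replicate 1.

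Acadl, the long-chain dehydrogenase, had nearly equal means in the genotypes. Its probe lies at chr1:66877673-66877732 (mm9, minus strand). The log2 signals were 10.05, 10.39 and 9.76 in WT and 10.12, 9.99, 10.15 and 9.97 in SHIVA. The SHIVA mice lay inside the range of the WT mice. The means differed by a log2 fold change of -0.01 (limma adjusted p = 0.991), with a 95% interval of -0.41 to 0.39 whose lower end lies near the difference seen for Acadm. Its sign turned in 7 of 18 alternatives, the values running from -0.16 to 0.15. The replicate block and the fit without SHIVA replicate 4, both among the 7, gave the same value. Alternatives that changed only the filter, the probe rule or the test could not turn it.

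Acads, the short-chain dehydrogenase, was read at chr5:115560887-115560946 (mm9, minus strand). Its log2 signals were 11.29, 11.46 and 11.59 in WT and 11.40, 10.91, 11.26 and 11.17 in SHIVA. SHIVA replicate 2 was the lowest mouse, and SHIVA replicate 1 lay inside the WT range. For Acads the log2 fold change was -0.26 (SE 0.17, limma adjusted p = 0.559), -0.17 without SHIVA replicate 2 and -0.34 without WT replicate 1.

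Among the 4 acyl-CoA dehydrogenases, the spread between mice was larger in WT than in SHIVA for Acadvl, Acadl and Acadm, and smaller for Acads. For Acadl the SD was 0.31 in WT (n = 3) and 0.09 in SHIVA (n = 4), and for Acadvl it was 0.24 and 0.08. No interaction between chain length and genotype was tested, so the differences between these 4 genes were not tested.

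Etfdh, which hands the electrons of all these dehydrogenases to ubiquinone, was read at chr3:79407806-79407865 (mm9, minus strand). Its log2 signals were 11.65, 12.05 and 11.28 in WT and 11.51, 11.58, 11.47 and 11.52 in SHIVA. The 4 SHIVA mice lay within a narrow band inside the WT range, with an SD of 0.05 against 0.39 in WT. Its log2 fold change was -0.14 (SE 0.19, limma adjusted p = 0.805). It turned to 0.05 without WT replicate 2 and was -0.33 without WT replicate 3.

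Etfa and Etfb, the subunits of the electron transfer flavoprotein that feeds Etfdh, gave log2 fold changes of 0.02 (adjusted p = 0.97) and -0.15 (adjusted p = 0.751) in the same limma fit. Neither differed beyond the spread between mice.

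The trifunctional protein carries out the later steps for long chains, with Hadha as its hydratase and dehydrogenase subunit and Hadhb as its thiolase subunit. Hadha was read at chr5:30446215-30446274 on the minus strand and Hadhb at chr5:30510925-30510984 on the plus strand (mm9). The Hadha log2 signals were 10.53, 11.15 and 10.59 in WT and 10.43, 10.38, 10.69 and 10.47 in SHIVA. The Hadhb log2 signals were 12.43, 12.83 and 12.19 in WT and 12.34, 12.00, 12.38 and 12.25 in SHIVA. For both genes WT replicate 2 was the highest mouse, SHIVA replicate 2 the lowest and SHIVA replicate 3 the highest of the SHIVA mice, and the genotypes overlapped. The log2 fold changes were -0.26 for Hadha (SE 0.19, limma adjusted p = 0.605) and -0.24 for Hadhb (SE 0.19, limma adjusted p = 0.639). Without WT replicate 2 both came to -0.07. Hadha came to -0.38 without WT replicate 1, and Hadhb to -0.39 without WT replicate 3.

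Hadh, the short-chain 3-hydroxyacyl-CoA dehydrogenase of the matrix, was read at chr3:130936889-130936948 (mm9, minus strand). Its log2 signals were 12.77, 12.81 and 13.00 in WT and 12.71, 12.15, 12.76 and 12.76 in SHIVA. The genotypes did not overlap, but the gap was narrow, from 12.76 to 12.77, and under scaling to the 75th percentile the count of members without overlap was 1 in place of 2. SHIVA replicate 2 stood apart from the other 3 SHIVA mice. For Hadh the log2 fold change was -0.26 (SE 0.19, limma adjusted p = 0.608), -0.12 without that mouse and -0.32 without SHIVA replicate 3. In SHIVA replicate 2 the acute-phase transcript Saa2 also stood apart, at a log2 signal of 17.36 against 10.36 to 12.82 in the other 6 mice; the part of that state in the Hadh and Acads values was not tested.

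Acaa2, the thiolase that closes the cycle for medium chains, had the smallest spread between mice among the members, with an SD of 0.04 in WT (n = 3) and 0.03 in SHIVA (n = 4). Its probe is printed 10 times on each array, and the SD between those spots was 0.04 to 0.11 log2 units. The log2 signals were 15.98, 16.05 and 16.01 in WT, where 8 of 10 spots of replicate 1 were usable, and 15.96, 15.92, 15.92 and 15.98 in SHIVA. All 7 mice lay within a narrow range and the genotypes overlapped. For this gene the log2 fold change was -0.07 (SE 0.13, 95% interval -0.36 to 0.22, limma adjusted p = 0.867). The SE lies above the SDs between mice because limma draws the variance of a probe toward a value common to all tested probes.

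Decr1, the 2,4-dienoyl-CoA reductase needed to degrade polyunsaturated fatty acids, was the only member read by more than 1 probe. Both probes lie on the minus strand of chromosome 4 in mm9, at chr4:15846075-15846134 for the brighter and chr4:15844647-15844706 for the dimmer one, and were assigned to the same RefSeq transcript. The dimmer probe is 1428 bases further in the 3′ direction of the gene. The last 30 bases of each are shown, from the 5′ to the 3′ end of the probe, because the brighter one holds AATAAA (capitals), the hexamer known as a polyadenylation signal, and the dimmer one lies beyond it. AATAAA was in 10.1% of all 55681 probes and in 1 of the 11 member probes.

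Decr1, brighter probe: cttgggggttAATAAAttgtttgcttgatg
Decr1, dimmer probe: agagtttctgtttgttatgtgtaagacctg

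The brighter Decr1 probe gave log2 signals of 14.23, 14.25 and 13.68 in WT and 13.72, 14.03, 13.44 and 13.69 in SHIVA. WT replicate 3 lay among the SHIVA mice, of which replicate 2 was the highest, so the genotypes overlapped. The log2 fold change was -0.34 (SE 0.21, 95% interval -0.81 to 0.13, limma adjusted p = 0.542).

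The dimmer Decr1 probe gave log2 signals of 8.12, 8.48 and 7.37 in WT and 7.16, 6.92, 7.41 and 7.05 in SHIVA. SHIVA replicate 3 lay just above WT replicate 3, and the other 3 SHIVA mice lay below all WT mice. The log2 fold change was -0.85 (SE 0.26, 95% interval -1.45 to -0.26, limma adjusted p = 0.24), so the geometric mean of the SHIVA signals was 55.3% of that of WT. Without WT replicate 3 it was -1.16 with an adjusted p of 0.0355 by limma, the only one of 196 member values under the alternatives to pass the threshold. In that same fit 564 of 25910 tested probes, 2.18%, were called, against 0.232% with all mice.

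The change of the Decr1 probes against each other was compared as the difference of their log2 signals within each array. That difference was 6.11, 5.78 and 6.30 in WT and 6.56, 7.10, 6.03 and 6.63 in SHIVA. The genotypes overlapped, and SHIVA replicate 2 had the largest difference. It was 0.52 larger in SHIVA, with p = 0.1714 in a two-sided exact permutation test over the 35 splits of the mice, whose smallest possible p is 0.0286. The probes pointed in the same direction, and a different size of change was not shown.

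**Figure D2:**
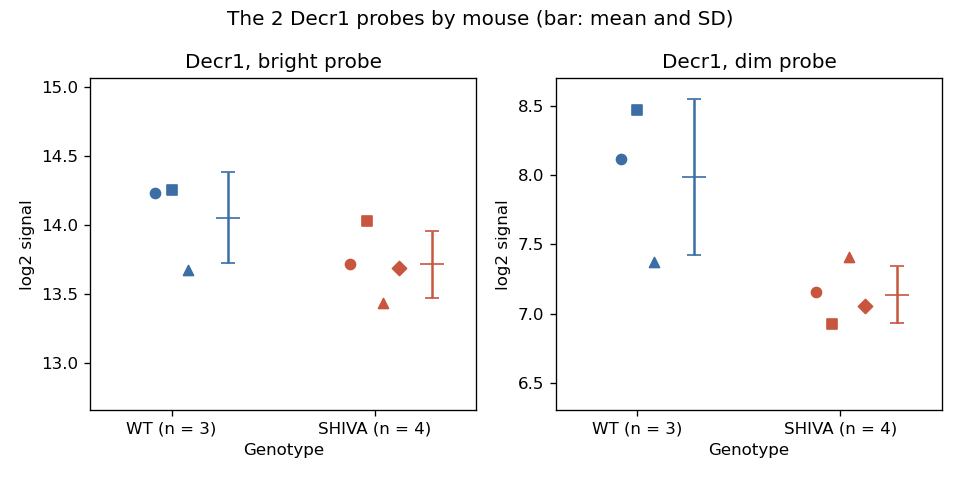
Log2 signal of the brighter (left) and the dimmer (right) Decr1 probe in each mouse, with the mean and SD of each genotype beside the points; both axes span the same number of log2 units. WT replicate 3 (triangle, 13.68 and 7.37) sits at the level of the SHIVA mice on both probes.

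**Figure D3:**
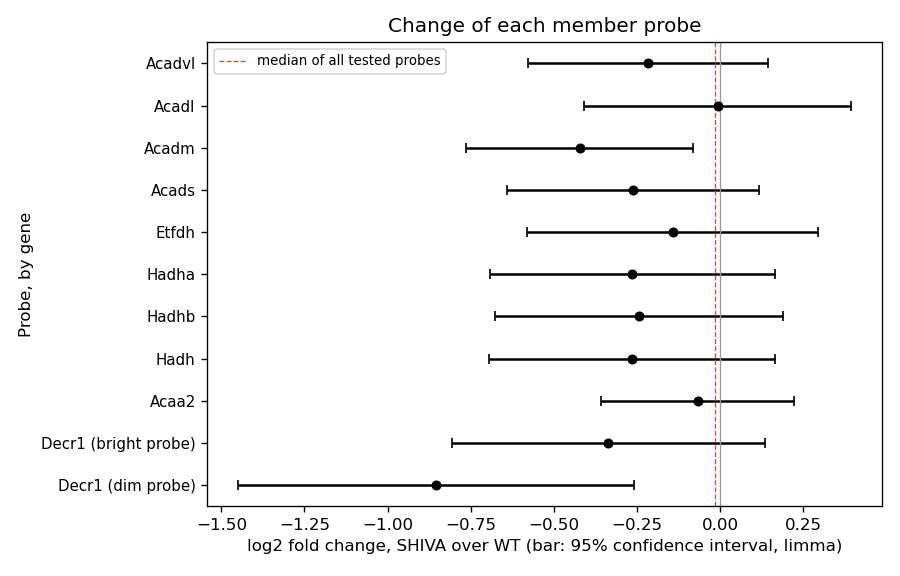
Log2 fold change of SHIVA over WT for the 11 member probes with limma's 95% confidence interval; the dashed line is the median of all 26258 tested probes. Every point lies below 0, from -0.01 for Acadl to -0.85 for the dimmer Decr1 probe, and the intervals of Acadm and the dimmer Decr1 probe leave out 0 before any correction for the number of probes.

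The members shared a pattern over the mice that the genotype alone did not describe. WT replicate 2 was the highest WT mouse for 8 of the 10 genes, where 30.3% of all tested probes had it so, and WT replicate 3 was the lowest for 5 of them, against 36.8%. The SD was larger in WT than in SHIVA for 8 of the 10 genes, against 55.3% of tested probes. The mean of the 10 genes, each taken relative to its own mean over 7 mice, was 0.07, 0.34 and -0.03 log2 units in WT and -0.06, -0.17, -0.08 and -0.08 in SHIVA. The WT mice thus ran from -0.03 to 0.34 and the SHIVA mice from -0.17 to -0.06. On this mean the genotypes did not overlap, but WT replicate 3 lay next to the highest SHIVA mouse, replicate 1.

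Of 19914 other gene names, the one whose centred log2 profile over the 7 mice was nearest to the members' mean profile was Znrd2 (root mean square difference 0.03 log2 units), followed by Gemin5, Srpk1, LOC100047930 and Rbm15b. With 7 points and as many candidates, near profiles arise readily, and nothing is read from them.

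Genes next to the members in fatty acid oxidation were listed and described by counts and medians. A list of 15 other mitochondrial genes held 10 linked to fatty acid oxidation and 5 (Pcca, Pccb, Mmut, Mcee and Acadsb) of propionate and branched-chain amino acid breakdown. Over the 15, 6 were lower and 9 higher in SHIVA, with a median log2 fold change of 0.09, and 0 were called in the limma fit. Without those 5, a division made after the values were seen, 5 were lower and 5 higher and the median was -0.07, so the list had no settled direction. The largest changes were those of Eci1 (-0.62, adjusted p = 0.195) and Eci2 (-0.59, adjusted p = 0.302), the isomerases that move double bonds of unsaturated chains into reach of the cycle, followed by Hsd17b10 (-0.44, adjusted p = 0.433). The Eci1 log2 signals were 13.99, 13.97 and 13.61 in WT and 13.33, 12.99, 13.24 and 13.37 in SHIVA, with no overlap. Acad11 was also lower without overlap (-0.25, adjusted p = 0.572), and Acadsb was higher without overlap (0.39, adjusted p = 0.339). Eci1, Eci2 and Decr1 all act on unsaturated chains, and 0 of these 3 genes were called.

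The carnitine shuttle, which brings acyl chains to the enzymes described here, had 6 of 6 genes lower in SHIVA, with a median log2 fold change of -0.66; 0 were called and 3 did not overlap between the genotypes. The largest changes were those of Crat (-1.31, adjusted p = 0.143), the carnitine acetyltransferase, Slc22a5 (-1.08, adjusted p = 0.194), the carnitine transporter of the plasma membrane, and Slc25a20 (-0.76, adjusted p = 0.154), the carrier of the inner membrane. The Slc25a20 log2 signals were 11.08, 11.16 and 10.52 in WT and 10.21, 10.10, 10.11 and 10.23 in SHIVA, with every SHIVA mouse lower. The median of the shuttle was -0.46 without WT replicate 2 and -0.92 without WT replicate 3.

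In peroxisomal beta-oxidation, a separate pathway for very long and dicarboxylic chains, 11 of 14 genes were lower and 3 (Acox2, Pecr and Abcd2) higher, 0 were called, and the median log2 fold change was -0.33 (-0.15 without SHIVA replicate 2). The 5 without overlap were Hsd17b4, Acaa1a, Acaa1b, Ech1 and Abcd3, all lower in SHIVA. The largest changes were those of Ehhadh (-0.95, adjusted p = 0.326), the peroxisomal bifunctional enzyme, Acaa1b (-0.95, adjusted p = 0.143), a peroxisomal thiolase, and Abcd3 (-0.60, adjusted p = 0.189), a peroxisomal transporter.

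**Figure D4:**
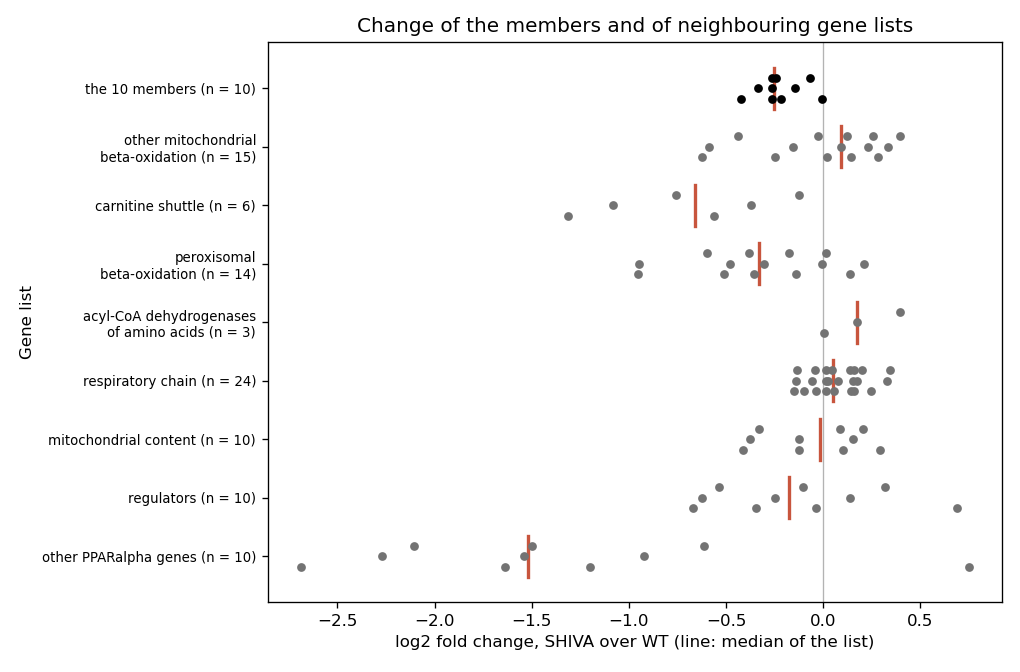
Log2 fold change of SHIVA over WT for the 10 members (black) and for the tested genes of 8 other lists (grey), each point being 1 gene by its brightest probe; the vertical red line is the median of each list, and the row of 15 includes the 5 genes of propionate and branched-chain amino acid breakdown. The members lie between -0.42 and -0.01, while the carnitine shuttle reaches -1.31 and the other PPARα genes reach -2.69.

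The 10 genes listed as rising with PPARα outside mitochondrial oxidation showed larger differences than the members on the same arrays: 9 were lower, Cd36 was higher, 0 were called, and the median log2 fold change was -1.52. The largest were those of Acot1 (-2.69, adjusted p = 0.21), an acyl-CoA thioesterase, Cyp4a14 (-2.27, adjusted p = 0.167), a fatty acid hydroxylase, and Fgf21 (-2.11, adjusted p = 0.263), a fasting hormone. For Acot1 and Fgf21 the genotypes overlapped, with WT replicate 3 at 9.65 and 4.57, inside the range of the SHIVA mice. Without overlap, 5 genes of the list were lower and 1, Cd36, was higher. The mean log2 signal of this list was 12.20, 12.66 and 11.02 in WT and 10.40, 10.85, 10.35 and 10.75 in SHIVA. Its order among the WT mice, replicate 2 above 1 above 3, was that of the members' mean. Since all lists come from the same 7 arrays, this is a description of these mice and not a second sample of them. The list was also chosen with earlier results of these data known. It holds Vnn1, whose low serum level was the screen that found the SHIVA line. The size of the list's differences is therefore no yardstick for the members.

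**Figure D5:**
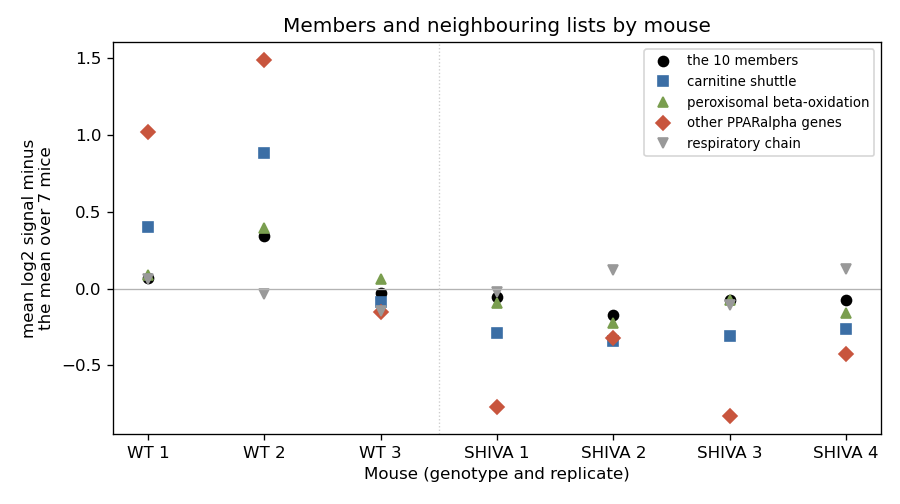
Mean log2 signal of the 10 members and of 4 other lists in each mouse, minus the mean of the list over the 7 mice. The members range from -0.17 in SHIVA replicate 2 to 0.34 in WT replicate 2, and the dotted line divides WT from SHIVA.

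Of the 11 genes listed as regulators, 10 were tested, 7 were lower and 3 (Ppargc1a, Hnf4a and Sox17) higher, 0 were called, and the median log2 fold change was -0.18, which came to -0.06 without WT replicate 2 and -0.28 without SHIVA replicate 2. Ppara itself had log2 signals of 12.19, 12.61 and 12.33 in WT and 11.66, 11.75, 11.64 and 11.78 in SHIVA. All 4 SHIVA mice lay below all 3 WT mice (log2 fold change -0.67, SE 0.15, limma adjusted p = 0.141). Nr1h4, the bile acid receptor, and Nrip1, a corepressor of nuclear receptors, gave -0.63 (adjusted p = 0.337) and -0.54 (adjusted p = 0.358). Sox17, the mutated gene, gave a log2 fold change of 0.69 (adjusted p = 0.292) at signals near background, being well above it on 6 of 7 arrays. The array reads its transcript level and does not show the mutation, so it does not check the labels.

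Genes of other mitochondrial functions were listed as a comparison. In the respiratory chain 7 of 24 genes were lower and 17 higher in SHIVA, with a median of 0.05 and 0 called, and among 10 genes of mitochondrial content 5 were lower and 5 higher, with a median of -0.02 and 0 called. Within the latter, Cs, the citrate synthase often used as a measure of mitochondrial content, gave -0.37 (adjusted p = 0.294) and Tomm40, a channel of the outer membrane, -0.41 (adjusted p = 0.317), both lower without overlap, while Hspd1, a matrix chaperone, was higher without overlap (0.29, adjusted p = 0.444). The relatives of the members that act on amino acids, Ivd, Acad8 and Gcdh, were all higher, by 0.40 (adjusted p = 0.331), 0.17 (adjusted p = 0.776) and 0.00 (adjusted p = 0.996) log2 units.

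These arrays read whole liver, where fewer cells of a type and less RNA per cell cannot be told apart. The 7 hepatocyte markers were all tested, and the log2 of their summed signals was 19.75 to 19.86 in WT and 19.74 to 19.87 in SHIVA. Such a sum is set mostly by the brightest probes of a list. By gene, 2 hepatocyte markers were lower and 5 higher (median 0.04), and Ttr was lower without overlap (-0.32). Of the markers of perivenous hepatocytes 5 of 6 tested were lower in SHIVA (median -0.46, log2 of summed signals 17.67 to 17.88 in WT and 17.32 to 17.44 in SHIVA). Of these, 2 (Glul and Cyp2e1) did not overlap. Of the periportal markers 6 of 6 were higher (median 0.42, summed 18.48 to 18.54 in WT and 18.58 to 18.83 in SHIVA), with 3 (Hal, Sds and Gls2) not overlapping. Of the markers of neutrophils 5 of 5 were higher (median 1.13, summed 8.68 to 10.2 in WT and 8.41 to 11.1 in SHIVA). Among these, Ngp and Ltf were well above background on only 3 arrays, the fewest the filter allows. Both were highest in SHIVA replicates 1 to 3, so their direction adds nothing to the count. SHIVA replicate 4 had the lowest neutrophil sum of the 7 mice, 8.41. For Kupffer cells and macrophages 6 of 6 markers were higher (median 0.57, summed 14.14 to 15.24 in WT and 14.64 to 15.79 in SHIVA). Of the bile duct markers 2 of 3 tested were lower (median -0.73, summed 6.83 to 7.89 in WT and 6.31 to 7.14 in SHIVA), and of the erythroid markers 2 of 2 tested, Hba-a1 and Alas2, were higher (median 0.53, summed 15.42 to 15.91 in WT and 15.72 to 16.62 in SHIVA), Alas2 without overlap. Medians of the endothelial, stellate and lymphocyte markers were -0.07, -0.02 and 0.10, and that of 2 tested pancreas markers was 0.57. Without overlap, the stellate marker Des was lower, and the stellate marker Rgs5 and the pancreas marker Cela2a were higher. Over all tested probes 12.0% did not overlap in either direction. No adipocyte marker could be tested, no marker was called, and of the perivenous list Axin2 was not well above background on enough arrays to be tested. Their part in the members' values was not tested. All arrays came from 1 slide and 1 scan, with WT in the first and SHIVA in the second row of the slide, so slide row and genotype cannot be told apart.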

How the data were processed

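Liver RNA of 3 WT and 4 SHIVA mice was read on 1 single-colour array each. The authors deposited the scanner intensities of each array from Agilent Feature Extraction 10.5.1.1 (per the file headers detrended, without local background subtraction or normalization between arrays; probe positions on mm9), with flags per spot. A second deposited table holds log2 values after quantile normalization by the authors, according to their methods. From the processed intensities, spots marked as outliers (120 to 163 per array) were left out, values were quantile normalized over 59305 non-control spots, put on the log2 scale and averaged per probe (55681 probes). No spot was saturated, and 44.5% to 48.7% of probes per array were well above background. Groups came from the labels. Probes well above background on at least 3 arrays (26258) were fitted in R 4.3.3 with limma 3.58.1 (lmFit, eBayes), SHIVA over WT, with calls made under 0.05 after Benjamini-Hochberg adjustment; the code was tested on simulated data. Gene names were updated through RefSeq for 26413 probes. Alternatives were scaling to the 75th percentile, mean signal without background correction, normexp with an offset of 50, the authors' table, other filters and probe rules, array weights, a replicate block, the methods' t-test, and leaving out each mouse. Named genes were all members with every probe and, of each other list, at most 3 with the largest change; Acad8, Gcdh, Etfa, Etfb, Ppara and Sox17 and the Ppara, Eci1 and Slc25a20 values by mouse were added, as were the genes behind counts of 5 or fewer. The members and lists were chosen with earlier results of these data known. The labels name separate mice, but p-values rest only on these 7. In limma the variance of each probe is also drawn toward a value common to all tested probes. Ketone body synthesis is not reported here.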

Additional observations from a re-analysis of the deposited data

Results flagged for a closer look

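Hadh in SHIVA replicate 2 was the only value in which a SHIVA mouse stood apart from the other 3, when each of the 11 member probes was searched by Dixon's ratio at the 95% level. Its log2 signal was 12.15, and the other SHIVA mice had 12.71, 12.76 and 12.76. Chance gives 0.55 such values in 11 probes.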

How the results depend on the processing

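The count of members called was 0 in every alternative run, and 8 to 10 of 10 members were lower in SHIVA. Of 196 member values under 18 alternatives, 187 kept their direction and their side of the threshold, 8 changed sign and 1, the dimmer Decr1 probe without WT replicate 3, passed it. The 187 are no measure of how stable the direction is. Other filters, other probe rules and the t-test reuse the main fold changes, except for Decr1 when its probes were averaged. The replicate block gave the same member fold changes as leaving out SHIVA replicate 4, so 1 result is counted under both. Acadl turned to 0.056 with the mean signal without background correction, 0.0571 with normexp, 0.0576 in the authors' table and 0.0222 with the replicate block, and in the values with 1 mouse left out it ran from -0.1605 to 0.1537. Etfdh turned to 0.0534 without WT replicate 2, its values with 1 mouse left out running from -0.3342 to 0.0534. The cause was not tested. The count of members without overlap was 1 under scaling to the 75th percentile and 2 to 5 with 1 mouse left out, being 5 without WT replicate 1 and 5 without WT replicate 3. With fewer mice any probe is more readily without overlap. The share over all tested probes was not counted under the alternatives, so nothing is read from these counts. The median log2 fold change of the members ran from -0.3064 to -0.0735 with 1 mouse left out, and the value nearest 0 was that without WT replicate 2; it was -0.16 with the mean signal, with normexp and in the authors' table. Replicate numbers did not pair the mice (correlations of same-numbered deviations -0.06, 0.03 and 0.23, and not every mouse correlated best with its own number); with the replicate block 0 members were called, the median was -0.25 and 12 probes were called over all. The count of all probes called was 61 and came to 163 with the mean signal, 164 in the authors' table, 110 with probes above background on all 7 arrays, 165 with array weights, 14 without a filter, 0 with the methods' t-test (2940 at an unadjusted p under 0.05, and 61 by limma) and 3 to 564 with 1 mouse left out, being 3 without WT replicate 1, 7 without WT replicate 2, 564 without WT replicate 3, 9 without SHIVA replicate 1 and 17 without SHIVA replicate 3. The share of calls lower in SHIVA was 54.1%, and it had no settled side: it was 64.8% with normexp, 78.6% without a filter, 46.7% with array weights, 33.3% with the replicate block, and 0% to 59.6% with 1 mouse left out. The median of the other mitochondrial list turned to -0.0674 without its 5 genes of propionate and branched-chain amino acid breakdown, an alternative chosen after seeing the data, and ran from 0.03 to 0.17 under 11 other alternatives. With 3 and 4 mice, intervals of about 0.4 log2 units on either side limit what can be seen.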
